A study of Mus musculus with 18 samples.

Results

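The respiratory chain passes electrons from NADH and succinate to oxygen through complexes I to IV of the inner mitochondrial membrane, and the gradient this builds drives ATP synthesis by complex V. Most subunits are encoded in the nucleus and imported, while a few are encoded by mitochondrial DNA. Macrophages are known to shift between oxidative metabolism and glycolysis when they are activated. The genes described here are those whose symbols start with *Nduf*, *Uqcr*, *Cox4*, *Cox5*, *Cox6*, *Cox7* or *Cox8*, together with *Sdha*, *Sdhb*, *Sdhc* and *Sdhd*. Of 24421 gene symbols 75 matched these names, and 62 had at least 180 counts summed over 18 libraries and were retained. All 62 also passed the filter on low counts that left 10550 genes for testing.

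Bulk RNA-seq had been carried out on macrophages of the knee synovium of WT C57BL/6J mice of both sexes, sorted as LYVE1+CX3CR1+, MHCII+CD11c- or MHCII+CD11c+ cells. Each subset was sampled without treatment (control) and 8 h after intravenous injection of immune complexes (IC), which were fluorescently labelled ovalbumin bound by rabbit antibodies against it. Every one of the 6 groups had 3 libraries, and each library pooled the cells of 6 legs from 3 mice, so single animals cannot be followed. The comparisons answer whether the subsets differ in respiratory chain transcripts, whether IC alters them and whether the subsets respond differently.

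Library totals lay between 245903 and 2172358 counts, and the members took 0.282% to 0.439% of them. MHCII+CD11c- IC replicates 1 and 2 were the shallowest, with 381217 and 245903 counts, and 19 and 22 of the 62 members had fewer than 10 counts there. At that depth a difference in those members was often not detectable. The summed level of 8 macrophage markers was 5134 to 10524.5 CPM (counts scaled to library size) over all libraries, and no marker of that list was at 0 in a whole group. Markers of other cells also differed. The sum of 10 neutrophil markers was 0.627 to 8.61 CPM in LYVE1+CX3CR1+ control libraries, with 6 of the 10 at 0, against 735.5 to 1838 CPM in MHCII+CD11c- and 4.60 to 683.5 CPM in MHCII+CD11c+ control libraries. After IC it was 1.13 to 141.3 CPM in LYVE1+CX3CR1+, 1487 to 4162 CPM in MHCII+CD11c- and 1004 to 2276 CPM in MHCII+CD11c+ libraries. The sum of 11 fibroblast markers was 862.2 to 8532 CPM over all libraries. The part of these cells in the results was not tested, and in sorted bulk samples fewer cells of a type and less RNA per cell cannot be told apart.

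All 29 accessory and all 7 core subunits of complex I in the name list were members. So were its 4 subunits of complex II, 8 of complex III and 11 ubiquitous subunits of complex IV, where *Ndufa4* is counted by its role. Cytochrome c1, also a subunit of complex III, falls outside the name rule. Outside the complexes proper stood *Cox7a2l*, a factor that links complexes III and IV into supercomplexes, and 2 of 7 complex I assembly factors. The 13 symbols that missed the rule were the other 5 assembly factors and the 8 tissue-restricted or inducible forms of complex IV subunits. *Ndufaf4*, with 204 counts, and *Ndufb2*, with 305, were just inside the limit. *Ndufaf3*, with 172, and *Ndufaf5*, with 151, were just outside.

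The forms of complex IV subunits that mark other tissues were near absent. *Cox8b*, *Cox8c* and *Cox7b2* had 0 of 24254817 counts, which allows up to 0.124 CPM (3 counts) for each, and *Cox4i2*, a form induced by low oxygen, had 1. The muscle forms *Cox6a2* and *Cox7a1* had 41 and 28 counts in all, the testis form *Cox6b2* had 32 and the hypoxia-induced *Ndufa4l2* had 30. Each of these was detected in 9 libraries or fewer. The sum of 18 skeletal muscle markers was 19.5 to 73.5 CPM in 17 of the 18 libraries and 324.1 CPM in 1 MHCII+CD11c+ control library.

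Many genes of the chain are known targets of nuclear respiratory factors, so their promoters are shown for the motif content that the counts themselves do not give. RefSeq promoter windows of GRCm38.p6, from 250 bases before to 50 after the gene start, were found for 52 of the 62 members. Both strands were searched for the core motifs of NRF1 (GCGCANGCG), of the ETS factor GABP (CCGGAAGT), of YY1 (AAGATGGCG) and of estrogen-related receptors (TCAAGGTCA). The NRF1 core was in 14 member windows (26.9%) and in 6.47% of all 27025 windows. The ETS core was in 4 (7.69%, all 4.0%), the YY1 core in 5 (9.62%, all 1.5%) and the receptor site in 1 (1.92%, all 0.407%). At least 1 of the 4 motifs was in 21 member windows (40.4%) against 11.4% of all windows, and the median GC content was 59.0% against 52.7%. These are matches of letters, not shown to be bound sites. The stretches below belong to *Sdha* (chr13:74350241-74350360, minus strand), *Cox6a1* (chr5:115349011-115349130, minus strand) and *Ndufa8* (chr2:36049339-36049458, minus strand), which each held 2 or 3 matches to the NRF1 core, drawn in capitals. Each sequence ends before the gene start and is written 5′ to 3′ in the direction of transcription.
Sdha: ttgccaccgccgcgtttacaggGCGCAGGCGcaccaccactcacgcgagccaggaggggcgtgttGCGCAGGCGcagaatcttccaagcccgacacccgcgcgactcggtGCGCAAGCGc
Cox6a1: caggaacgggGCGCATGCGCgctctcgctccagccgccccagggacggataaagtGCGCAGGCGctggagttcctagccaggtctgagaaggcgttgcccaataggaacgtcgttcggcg
Ndufa8: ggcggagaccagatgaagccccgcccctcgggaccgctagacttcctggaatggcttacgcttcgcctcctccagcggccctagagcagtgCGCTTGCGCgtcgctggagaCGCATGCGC

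In *Sdha* the 3 matches lie on the strand shown. In *Cox6a1* the first capital run holds overlapping matches on both strands, and in *Ndufa8* both matches lie on the opposite strand. Of the members that passed a test below, *Ndufa6* had 1 NRF1 match, inside the transcribed part of its window, and *Cox8a* had 2 ETS matches. *Ndufa13* and *Cox7a2l* had none of the 4 motifs in this window, and *Cox6c* had no entry in the table.

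Levels were compared between genes only as CPM per kb of the longest coding transcript. By this measure the complexes were ordered IV, III, II, I, with medians over members of 97.1 for the 12 complex IV genes, 73.1 for complex III, 55.1 for complex II, 45.1 for the core and 35.7 for the accessory subunits of complex I. The 2 assembly factors had a median of 4.48. *Cox4i1*, the largest nuclear-encoded subunit of complex IV, was the highest of all at 293 ± 56.3 (SD, n = 18 libraries), followed by *Cox6c* at 200.3 ± 51.9 and *Cox6a1* at 166.2 ± 35.8. High members elsewhere were *Uqcrh*, the hinge protein of complex III, at 131 ± 31.0, and *Ndufb10* of the complex I membrane arm at 118 ± 23.4. *Ndufa4*, first assigned to complex I and now to complex IV, stood at 66.9. The levels of *Cox6a1* and *Cox6c*, and those of *Uqcrh* and *Ndufb10*, overlapped within 1 SD. With all exons of a gene joined in place of its longest transcript, *Cox4i1* stayed the highest of complex IV, but *Ndufa2*, *Sdhd* and *Uqcr11* became the highest of the accessory subunits, complex II and complex III.

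**Figure D1:**
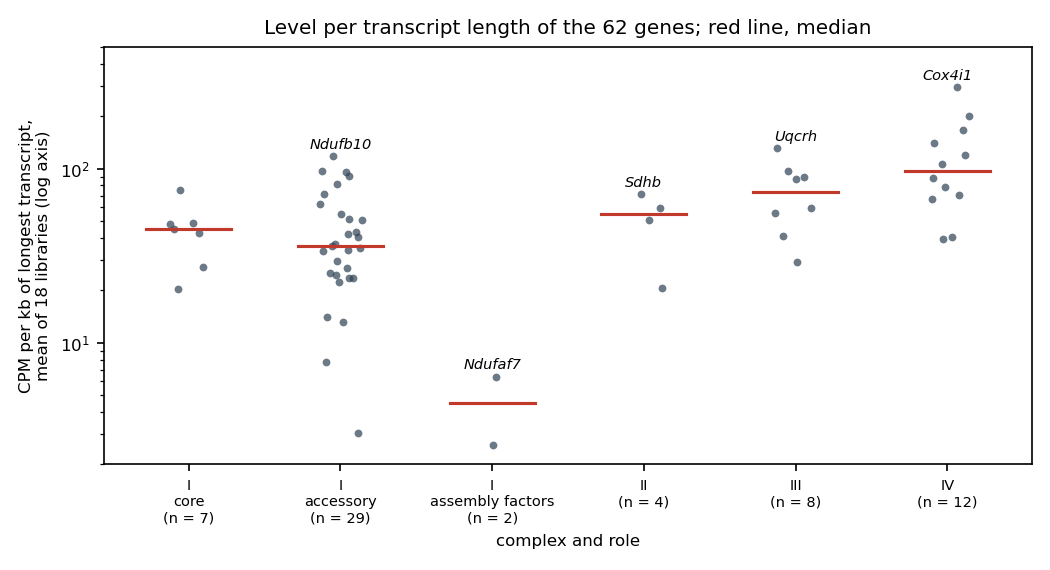
Level of each of the 62 members as CPM per kb of its longest transcript, mean of 18 libraries, on a log axis, by complex and role; red lines are medians. Complex IV genes have the highest median (97.1) and the assembly factors the lowest (4.48). *Ndufb2*, at 3.04, had 305 counts in all and a longest transcript of 4371 bases.

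Complex II, which is also an enzyme of the citric acid cycle, has 4 subunits. Per kb, the iron-sulfur protein *Sdhb* stood at 71.2, the flavoprotein *Sdha* at 59.6 and the membrane anchors *Sdhd* and *Sdhc* at 50.6 and 20.7. By edgeR 0 of the 52 pairs of gene and comparison were called, 1 had an unadjusted p under 0.05 and DESeq2 called 0. Over all 10550 genes edgeR called 8179 pairs in the same 13 comparisons. The summed level of complex II was 325.6, 331.3 and 351.4 CPM in MHCII+CD11c- control libraries and 374.2, 378.7 and 397.4 CPM in LYVE1+CX3CR1+ control libraries.

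**Figure D2:**
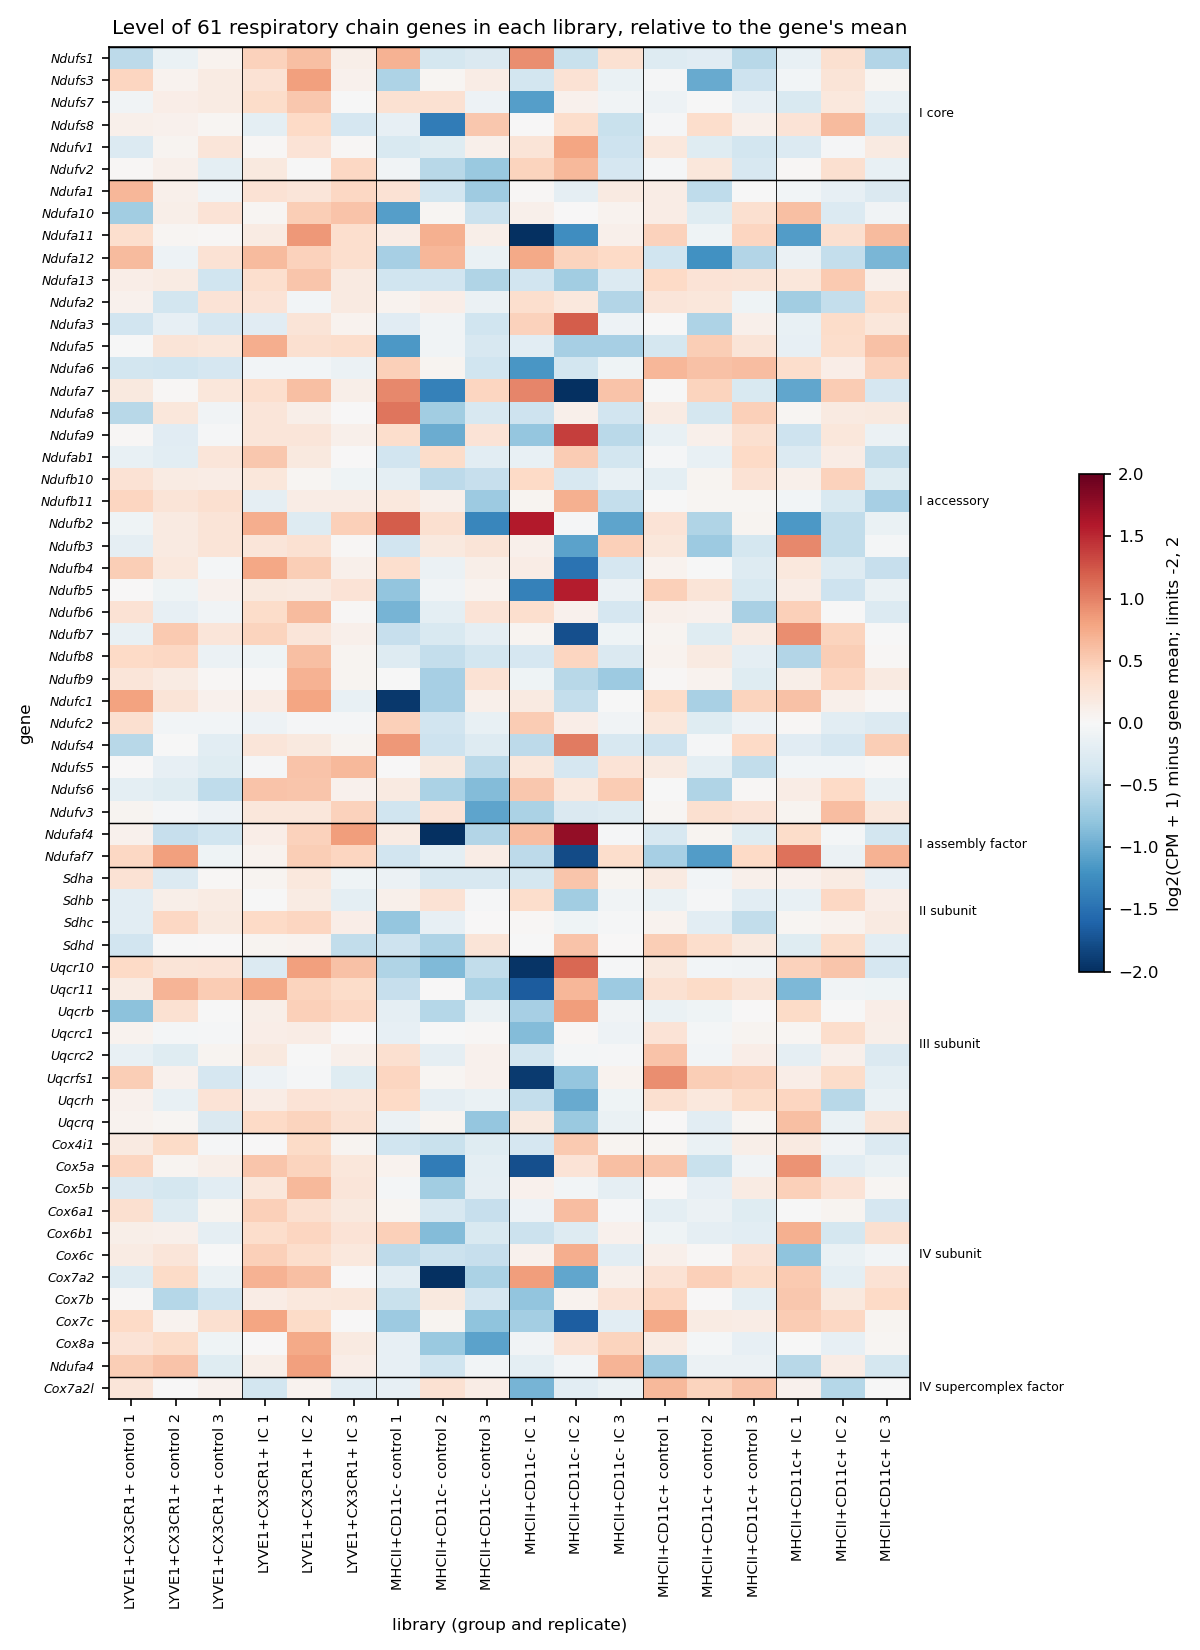
Heat map of log2(CPM + 1) minus the gene's mean over 18 libraries, for 61 of the 62 members in rows, grouped by complex and role, and 18 libraries in columns, grouped by subset and treatment. Most cells are pale, rows do not share 1 pattern, and the darkest cells lie in the MHCII+CD11c- control and IC libraries, the shallowest 2 among them.

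Without treatment, MHCII+CD11c- macrophages had the lowest summed level of the 62 members, 2891, 2958 and 3318 CPM. LYVE1+CX3CR1+ libraries had 3460, 3648 and 3680 CPM and MHCII+CD11c+ libraries 3460, 3612 and 3858 CPM, so the MHCII+CD11c- libraries lay below the others and the other subsets overlapped. Complex IV, counted with *Cox7a2l* as 12 genes, differed most in proportion, at 759.1, 799.9 and 870.9 CPM in MHCII+CD11c- libraries against 961.1 to 1125 CPM in LYVE1+CX3CR1+ and 984.1 to 1116 CPM in MHCII+CD11c+ libraries. These sums are a description of the libraries and were not tested.

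**Figure D3:**
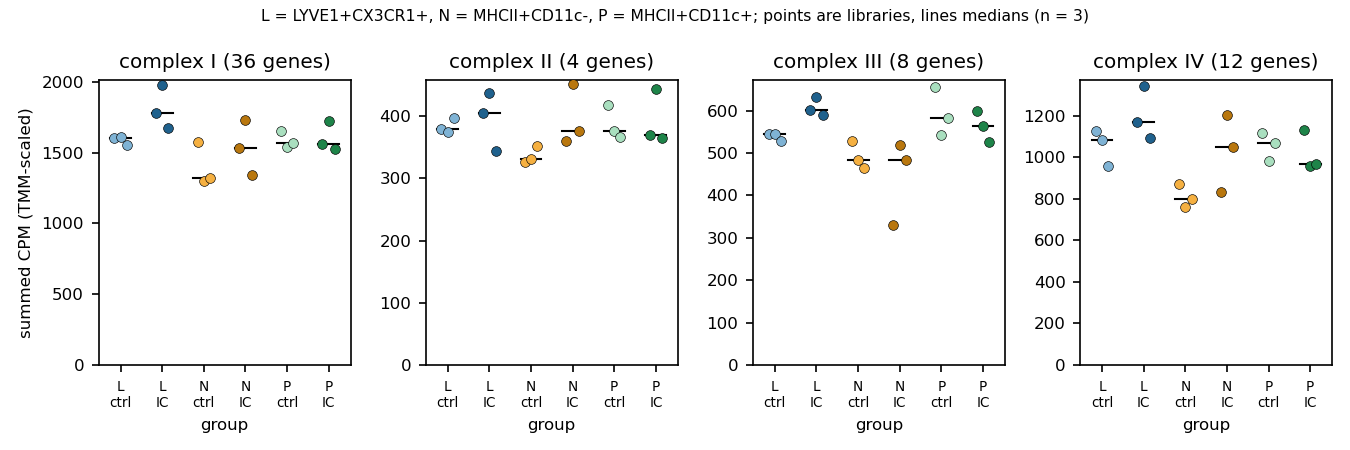
Summed TMM-scaled CPM of the subunits of each complex in every library, by subset and treatment, each axis starting at 0; lines are group medians of 3 libraries. MHCII+CD11c- control libraries lie between 759.1 and 870.9 CPM for complex IV, below the LYVE1+CX3CR1+ and MHCII+CD11c+ control libraries.

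Gene by gene, few members differed between untreated subsets. By the quasi-likelihood test of edgeR, adjusted after Benjamini-Hochberg, 1 of 62 was called between LYVE1+CX3CR1+ and MHCII+CD11c- cells, where 11.4% of all genes were. Between LYVE1+CX3CR1+ and MHCII+CD11c+ cells 1 was called against 21.8% of all genes, and between MHCII+CD11c+ and MHCII+CD11c- cells 1 against 3.49%. Among the 8094 genes in the members' range of mean level, 10.9%, 21.2% and 3.24% were called in the same comparisons. The median log2 fold change of the members was 0.21 for LYVE1+CX3CR1+ over MHCII+CD11c-, with 45 of 62 positive, 0.00 for LYVE1+CX3CR1+ over MHCII+CD11c+, with 31 positive, and 0.21 for MHCII+CD11c+ over MHCII+CD11c-, with 45 positive. The median of all genes was between -0.02 and -0.01 in all 3, and the first and last comparison share the MHCII+CD11c- libraries. For LYVE1+CX3CR1+ against MHCII+CD11c+ cells, the 95% interval of the difference lay within 2-fold for 48 of the 62 members. It did so for 35 members in LYVE1+CX3CR1+ against MHCII+CD11c- cells and for 37 in MHCII+CD11c+ against MHCII+CD11c- cells. For the remaining members a missed 2-fold difference is not bounded.

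*Cox8a*, a small structural subunit of complex IV (gene at chr19:7215153-7217616 of GRCm38), was the member called between the LYVE1+CX3CR1+ and MHCII+CD11c- controls. Its level was 70.0, 90.3 and 95.9 CPM in LYVE1+CX3CR1+ and 34.7, 44.0 and 66.3 CPM in MHCII+CD11c- libraries, and the groups did not overlap. It was higher by 0.82 (log2, SE 0.25, edgeR adjusted p = 0.0313). The call was lost without LYVE1+CX3CR1+ control replicate 1 (log2 0.79, adjusted p = 0.101) or 2 (0.74, 0.115) and without MHCII+CD11c- control replicate 2 (0.77, 0.104) or 3 (0.64, 0.170). In MHCII+CD11c+ control libraries *Cox8a* was at 66.5, 72.3 and 83.5 CPM.

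The most abundant complex IV genes stood close to the threshold in that comparison. *Cox6c* was higher by 0.61 (SE 0.21, edgeR adjusted p = 0.0578) and *Cox4i1* by 0.55 (SE 0.19, adjusted p = 0.0599), and neither gene's groups overlapped. Each passed under several alternatives, among them without the 2 shallowest libraries. The largest fitted differences belonged to low members with wide errors. *Ndufc1* was at 1.06 (SE 0.48, adjusted p = 0.173) and *Uqcr10* at 0.99 (SE 0.44, adjusted p = 0.160), while *Ndufa6* (-0.46) and *Ndufs4* (-0.43) were the lowest. The groups of 11 members did not overlap, all 11 higher in LYVE1+CX3CR1+ cells, against 28.9% of all genes in either direction.

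*Ndufa6*, an accessory subunit that anchors the acyl carrier protein to complex I (chr15:82350140-82354322), was the member called between LYVE1+CX3CR1+ and MHCII+CD11c+ controls. It was at 40.7, 41.8 and 42.5 CPM in LYVE1+CX3CR1+ libraries and at 81.5, 83.4 and 86.2 CPM in MHCII+CD11c+ libraries. The groups were far apart, with a log2 difference of -1.0 (SE 0.24, edgeR adjusted p = 0.00237), and this call held without any single library (adjusted p = 0.00121 to 0.0148). MHCII+CD11c- control libraries spread from 40.9 to 75.6 CPM and overlapped the LYVE1+CX3CR1+ range. At the other end stood *Ndufa12* (log2 1.06, SE 0.43, adjusted p = 0.0801) and *Ndufaf7* (0.76, SE 0.45), and *Uqcrfs1*, the Rieske iron-sulfur protein of complex III, was at -0.54 (SE 0.28). The groups of 9 members did not overlap, 4 of them higher in LYVE1+CX3CR1+ cells, against 41.3% of all genes.

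*Ndufa13*, an accessory subunit also known as GRIM-19 (chr8:69894180-69902558), was called between the MHCII+CD11c+ and MHCII+CD11c- controls. Its level was 103.2, 103.9 and 113.5 CPM in MHCII+CD11c+ and 56.2, 65.1 and 66.0 CPM in MHCII+CD11c- libraries, with no overlap. The log2 difference was 0.78 (SE 0.21, edgeR adjusted p = 0.0321), and it fell short of the threshold without any one of the 6 libraries compared, with log2 values of 0.71 to 0.82 and adjusted p of 0.0560 (without MHCII+CD11c- replicate 1) to 0.145 (without MHCII+CD11c- replicate 3). *Cox7a2* was the highest (1.20, SE 0.41, adjusted p = 0.112) and *Ndufa12* (-0.80) and *Ndufb2* (-0.45) the lowest. *Ndufa12* was at -1.07 without MHCII+CD11c- control replicate 1 and at -0.34 without replicate 2. The groups of 15 members did not overlap, all of them higher in MHCII+CD11c+ cells, against 22.3% of all genes. Markers of other cells differed in these comparisons too. In LYVE1+CX3CR1+ against MHCII+CD11c- controls 11.4% of all genes were called. Higher in MHCII+CD11c- cells were 8 of 8 neutrophil, 5 of 6 dendritic cell, 5 of 7 monocyte, 2 of 2 adipocyte and 2 of 5 endothelial markers tested. Higher in LYVE1+CX3CR1+ cells were 1 of 7 monocyte, 1 of 7 fibroblast and 1 of 5 Schwann cell markers. In LYVE1+CX3CR1+ against MHCII+CD11c+ controls 21.8% of all genes were called. There 6 of 8 neutrophil, 5 of 6 dendritic cell and 5 of 7 monocyte markers were higher in MHCII+CD11c+ cells. So were 1 of 2 adipocyte, 2 of 5 endothelial and 1 of 5 skeletal muscle markers. The LYVE1+CX3CR1+ cells were higher in 2 of 7 monocyte, 1 of 7 fibroblast and 3 of 5 Schwann cell markers. In MHCII+CD11c+ against MHCII+CD11c- controls 3.49% of all genes were called. There 3 of 5 Schwann cell and 1 of 7 monocyte markers were called higher and 2 of 6 dendritic cell markers lower in MHCII+CD11c- cells. For neutrophil markers edgeR and DESeq2 called 0 of 8, and 7 were at an unadjusted p under 0.05 by edgeR. Their part in the results was not tested.

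**Figure D4:**
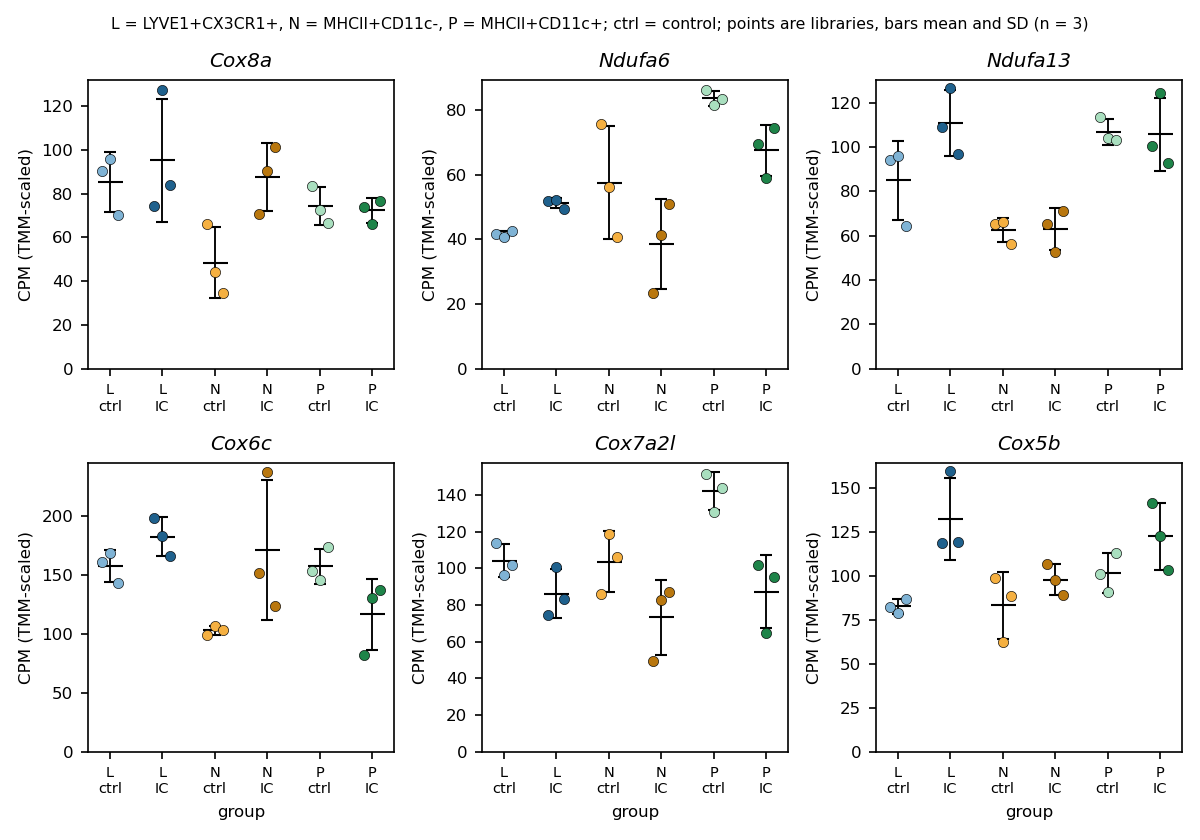
TMM-scaled CPM of *Cox8a*, *Ndufa6*, *Ndufa13*, *Cox6c*, *Cox7a2l* and *Cox5b* in every library (points), with mean and SD of 3 libraries, by subset and treatment. *Ndufa13* lies between 52.7 and 71.1 CPM in all 6 MHCII+CD11c- libraries, and *Cox7a2l* is lower after IC in MHCII+CD11c+ cells, from 131 to 151 down to 64.5 to 102 CPM.

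After IC the number of members called between subsets was as low. Against 9.77% of all genes, 1 member was called between LYVE1+CX3CR1+ and MHCII+CD11c- cells, and against 19.7% 1 was called between LYVE1+CX3CR1+ and MHCII+CD11c+ cells. Between MHCII+CD11c+ and MHCII+CD11c- cells edgeR called 0 members, against 2.84% of all genes, with 10 at an unadjusted p under 0.05 (8 of them higher) and 0 called by DESeq2. The members' median was 0.27 (49 of 62 positive), 0.20 (47 positive) and 0.08 (37 positive) in these 3 comparisons, where the median of all genes was -0.01, -0.04 and 0.00. The summed level was 3734 to 4426.5 CPM in LYVE1+CX3CR1+, 3080 to 3938 CPM in MHCII+CD11c- and 3418 to 3709 CPM in MHCII+CD11c+ libraries, so only LYVE1+CX3CR1+ and MHCII+CD11c+ did not overlap.

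*Ndufa13* was the member called between LYVE1+CX3CR1+ and MHCII+CD11c- cells, where *Cox8a* had been the one called in controls. After IC its level was 97.0, 109 and 126.5 CPM in LYVE1+CX3CR1+ and 52.7, 65.4 and 71.1 CPM in MHCII+CD11c- libraries, with a log2 difference of 0.77 (SE 0.22, edgeR adjusted p = 0.0246). The call was lost without MHCII+CD11c- IC replicate 1 (log2 0.79, adjusted p = 0.0512) or 2 (0.71, 0.0545) and without LYVE1+CX3CR1+ IC replicate 2 (0.69, 0.102). It was also lost in the fit of only the libraries compared (0.76, 0.107). The same held without both shallow libraries (log2 0.67), a fit that left 1 library in the MHCII+CD11c- IC group. MHCII+CD11c+ IC libraries, at 92.6, 100.3 and 124.3 CPM, also lay above all MHCII+CD11c- ones, but the difference of 0.71 (SE 0.22) did not pass (adjusted p = 0.0935). *Ndufa11*, a membrane-arm subunit, had the largest difference from MHCII+CD11c- cells at 1.07 (SE 0.44, adjusted p = 0.130), and was called (log2 2.38, adjusted p = 0.0158) without MHCII+CD11c- IC replicate 3, which left only the 2 shallow libraries in that group. The next was *Ndufa5* at 1.03 (SE 0.38), and *Ndufa3* (-0.47) and *Ndufaf4* (-0.34) were lowest. The groups of 14 members did not overlap, all higher in LYVE1+CX3CR1+ cells, against 25.1% of all genes. In this comparison, where 9.77% of all genes were called, markers of other cells differed too. Lower in LYVE1+CX3CR1+ cells were 8 of 8 neutrophil, 5 of 7 monocyte, 3 of 6 dendritic cell and 1 of 5 endothelial markers. Another 1 of 7 monocyte and 2 of 5 Schwann cell markers were higher. Their part in the result was not tested.

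*Cox6c*, a regulatory subunit of complex IV (chr15:35925886-35938246), was called between LYVE1+CX3CR1+ and MHCII+CD11c+ cells after IC. It stood at 165.7, 182.9 and 198.5 CPM in LYVE1+CX3CR1+ and 81.8, 130.6 and 137.1 CPM in MHCII+CD11c+ libraries. The groups did not overlap and differed by 0.62 (SE 0.20, edgeR adjusted p = 0.0306). This was lost without MHCII+CD11c+ IC replicate 1, the lowest library (log2 0.44, adjusted p = 0.175), and without LYVE1+CX3CR1+ IC replicate 1 (0.60, 0.0850) or 2 (0.65, 0.0594). In control libraries *Cox6c* did not differ beyond the spread between these subsets (log2 0.00, 95% interval -0.41 to 0.41). *Ndufa12* (1.07, SE 0.44, adjusted p = 0.0946) and *Ndufb2* (0.91, SE 0.60) were highest, *Ndufa6* (-0.40, SE 0.24) and *Ndufaf7* (-0.27) lowest. The groups of 7 members did not overlap, 6 of them higher in LYVE1+CX3CR1+ cells, against 38.0% of all genes. Markers of other cells were called here as well, with 19.7% of all genes. Lower in LYVE1+CX3CR1+ cells were 8 of 8 neutrophil, 5 of 7 monocyte, 6 of 6 dendritic cell and 3 of 5 endothelial markers. Of 5 Schwann cell markers 2 were lower and 2 higher, and 2 of 7 monocyte and 1 of 7 fibroblast markers were higher. Their part in the result was not tested. Between MHCII+CD11c+ and MHCII+CD11c- cells *Cox7c* (0.92, SE 0.39) and *Ndufa5* (0.88) were highest and *Ndufa12* (-1.12, SE 0.49) and *Ndufb2* (-0.99) lowest, and 9 members did not overlap, 8 of them higher in MHCII+CD11c+ cells, against 16.8% of all genes.

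Within each subset IC left the members without a call. In LYVE1+CX3CR1+ cells edgeR called 0 of 62, where 0.464% of all genes were called, with 3 at an unadjusted p under 0.05 and 1 called by DESeq2. In MHCII+CD11c- cells it called 0 against 1.06%, with 7 at an unadjusted p under 0.05 and 0 by DESeq2, and in MHCII+CD11c+ cells 0 against 0.673%, with 1 at an unadjusted p under 0.05 and 1 by DESeq2. With so few calls among all genes a count of 0 does not set the members apart. The medians of the members were 0.21 (51 of 62 positive), 0.15 (41 positive) and 0.05 (35 positive) in the 3 subsets, where those of all genes were -0.02, -0.01 and -0.01. The last median turned to -0.056 without MHCII+CD11c+ IC replicate 2 and to -0.0074 without MHCII+CD11c+ control replicate 3. The 95% interval lay within 2-fold for 47, 33 and 46 members.

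In LYVE1+CX3CR1+ cells *Cox5b*, the zinc-binding subunit of complex IV (chr1:36691449-36693681), was at 79.0, 82.2 and 87.2 CPM in control and 119, 119.6 and 159.7 CPM in IC libraries. The groups did not overlap and the log2 difference was 0.68 (SE 0.19), with an edgeR adjusted p of 0.156, while DESeq2 called it (adjusted p = 0.0287). *Ndufaf4* (0.83, SE 0.57) and *Ndufs6* (0.76, SE 0.34) were the highest and *Ndufb11* (-0.29) and *Cox7a2l* (-0.27) the lowest. The groups of 15 members did not overlap, 14 of them higher after IC, against 19.1% of all genes.

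In MHCII+CD11c- cells *Ndufaf4* (1.52, SE 0.69) and *Cox7a2* (1.01, SE 0.46) were highest and *Ndufa11* (-0.93, SE 0.46) and *Uqcrfs1* (-0.70, SE 0.34) lowest, all with wide errors. Leaving out 1 library gave -2.22 to -0.58 for *Ndufa11* and -1.57 to -0.37 for *Uqcrfs1*, both lowest without MHCII+CD11c- IC replicate 3. *Cox8a* was at 34.7 to 66.3 CPM in control and 70.6 to 101 CPM in IC libraries without overlap, but its difference of 0.88 (SE 0.27) had an adjusted p of 0.115. Here 4 members did not overlap, 3 of them higher after IC, against 14.2% of all genes. In MHCII+CD11c+ cells *Ndufaf7* (0.94, SE 0.46) and *Ndufs3* (0.53) were highest and *Cox7a2l* (-0.72) and *Uqcr11* (-0.58) lowest, and 7 members did not overlap, 1 of them higher after IC, against 18.5% of all genes.

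Averaged over the 3 subsets, 1 member was called and 6.21% of all genes were. It was *Cox7a2l* (chr17:83501918-83517330), the supercomplex factor, which fell by 0.49 on the log2 scale (SE 0.13, edgeR adjusted p = 0.0182). C57BL/6 strains are known to carry a shortened form of its protein. In MHCII+CD11c+ cells it was at 130.8, 143.7 and 151.3 CPM in control and 64.5, 95 and 101.8 CPM in IC libraries, with no overlap (log2 -0.72, SE 0.21, adjusted p = 0.141). In MHCII+CD11c- cells it was at 86.0, 106.2 and 118.6 CPM against 49.7, 82.8 and 87.1 CPM (-0.47, SE 0.24, adjusted p = 0.358). In LYVE1+CX3CR1+ cells it was at 96.5, 101.8 and 113.9 CPM against 74.4, 83.1 and 100.7 CPM (-0.27, SE 0.21, adjusted p = 0.814). The mean was lower after IC in each subset, with overlap in the last 2. The averaged call held without any single library (adjusted p = 0.0121 to 0.0474). It was lost without both shallow libraries (log2 -0.40), a fit that left 1 library in the MHCII+CD11c- IC group. In the same test 5 of 8 neutrophil, 4 of 7 monocyte and 1 of 7 fibroblast markers were called higher after IC. Called lower were 5 of 5 erythroid, 2 of 5 Schwann cell and 1 of 6 dendritic cell markers. The part of these cells in this result was not tested.

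No other member passed the test of the averaged effect. *Cox5b* was higher by 0.38 (SE 0.12), just short of the threshold with an edgeR adjusted p of 0.0503. *Ndufaf4* (0.83, SE 0.36) and *Ndufs6* (0.65, SE 0.21, adjusted p = 0.0724) were the highest, and *Uqcrfs1* (-0.49, SE 0.18, adjusted p = 0.105) was as low as *Cox7a2l*. Without MHCII+CD11c- IC replicate 3 *Uqcrfs1* was called (log2 -0.79, adjusted p = 0.0110), and without MHCII+CD11c- control replicate 1 *Ndufs6* was (0.77, 0.0320). By complex, 10 of 11 complex IV subunits were positive with a median of 0.25, 26 of 36 complex I subunits with a median of 0.11, all 4 of complex II with a median of 0.07 and 3 of 8 in complex III with a median of -0.07. The members' median was 0.13, with 45 of 62 positive, and 60 of 62 intervals lay within 2-fold.

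**Figure D5:**
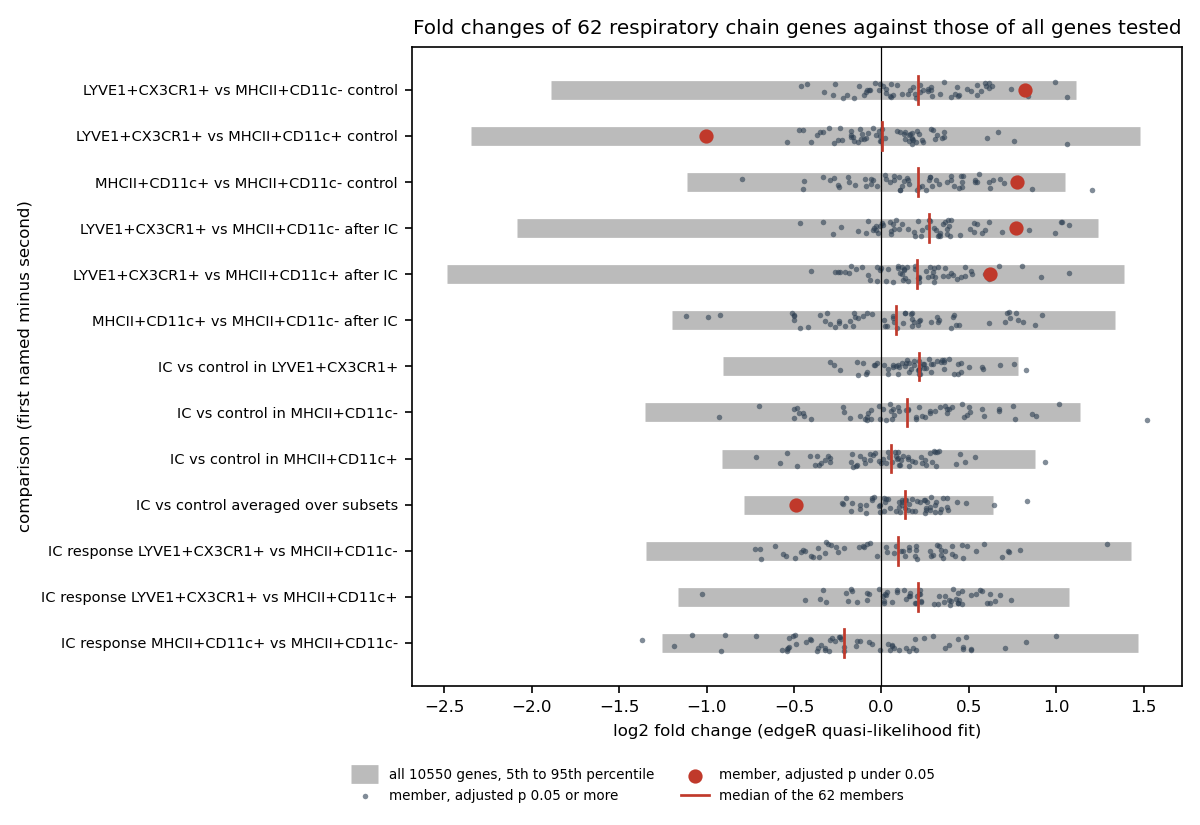
Log2 fold changes of the 62 members (dark points) in the 13 comparisons, with those past an adjusted p of 0.05 in red, the members' median as a red line and the 5th to 95th percentile of all 10550 genes as a grey bar. The members lie within the bulk of all genes in every comparison, with at most 2 of 62 outside the grey bar.

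No member's response to IC differed between subsets past the threshold. For LYVE1+CX3CR1+ against MHCII+CD11c- cells edgeR called 0 of 62 members and 0% of all genes, for LYVE1+CX3CR1+ against MHCII+CD11c+ cells 0 members against 0.00948% of genes, and for MHCII+CD11c+ against MHCII+CD11c- cells 0 against 0.00948%. DESeq2 called 0 members in each, and 2, 1 and 2 had an unadjusted p under 0.05. *Cox6c* had the smallest of these, with a response lower by 1.08 in MHCII+CD11c+ than in MHCII+CD11c- cells (log2 -1.08, SE 0.30, adjusted p = 0.684). Its level was 98.8 to 106.4 CPM in control and 123.2 to 237 CPM in IC libraries of MHCII+CD11c- cells and 145.3 to 173.6 CPM in control and 81.8 to 137.1 CPM in IC libraries of MHCII+CD11c+ cells. The extremes elsewhere were *Ndufa11* (1.29, SE 0.58), *Ndufa6* (0.79, SE 0.37), *Cox8a* (-0.72, SE 0.36) and *Ndufaf4* (-0.69) for LYVE1+CX3CR1+ against MHCII+CD11c-, and *Ndufb2* (0.74), *Ndufaf4* (0.68), *Ndufaf7* (-1.02) and *Ndufb7* (-0.44) for LYVE1+CX3CR1+ against MHCII+CD11c+. For MHCII+CD11c+ against MHCII+CD11c- they were *Ndufaf7* (1.0), *Ndufa11* (0.83), *Ndufaf4* (-1.37) and *Cox7a2* (-1.18). The *Ndufa11* response against MHCII+CD11c- cells was 0.94 to 2.59 when 1 library was left out, and highest without MHCII+CD11c- IC replicate 3. Errors here were wide, and the interval lay within 2-fold for 11, 22 and 13 members.

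In all, 6 pairs of member and comparison were called, from 5 members, and 57 members were called nowhere. Among all 10550 genes 8179 pairs were called in the same 13 comparisons. The median biological coefficient of variation was 0.205 for the members, 0.233 for genes in their range of level and 0.251 for all genes tested. This measure leaves out counting noise. The median count of a member was 13 in MHCII+CD11c- IC replicate 2 and 107 in LYVE1+CX3CR1+ IC replicate 2. Why few members were called was not tested.

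Genes of the chain outside the name rule and genes that work beside it were read in the same fit. Of 17 complex V genes, *Atp5o*, a stalk subunit of the ATP synthase, was higher in MHCII+CD11c+ than in MHCII+CD11c- controls (0.80, SE 0.19, edgeR adjusted p = 0.0155), and *Atpif1*, the inhibitor of the enzyme, was higher in LYVE1+CX3CR1+ than in MHCII+CD11c- cells after IC (0.58, SE 0.18, adjusted p = 0.0373). These were the 2 of 221 pairs of complex V gene and comparison that edgeR called, and DESeq2 called 5. Cytochrome c and c1 had 0 of 26 pairs called by edgeR, with 2 at an unadjusted p under 0.05. For the 37 tested assembly factors outside the name rule it was 0 of 481, with 28 at an unadjusted p under 0.05, and for 13 tested regulators of mitochondrial biogenesis 0 of 169, with 1. DESeq2 called 0 pairs in each of these 3 lists. Over all genes and the same 13 comparisons edgeR called 8179 pairs and DESeq2 9686.

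For the citric acid cycle and glycolysis, most calls came between LYVE1+CX3CR1+ and MHCII+CD11c+ cells, where 21.8% of all genes were called in controls and 19.7% after IC. Of 17 citric acid cycle genes, *Idh2* (0.77, SE 0.18) was higher and *Fh1* (-0.90) and *Cs* (-0.58), the citrate synthase, were lower in LYVE1+CX3CR1+ cells. Of 19 glycolysis genes 5 were lower there. These were the glucose transporter *Slc2a1* (-1.99, SE 0.40), *Pfkp* (-1.47, SE 0.23), *Pgk1* (-1.29), *Hk3* (-1.11) and *Aldoc* (-3.30, SE 1.02), and *Pfkfb3* (0.68) was higher. After IC, 5 glycolysis genes were again lower, with *Pkm* (-0.57) in place of *Aldoc*, and of the citric acid cycle genes *Idh2* (0.66) was higher and *Fh1* (-1.20) and *Mdh2* (-0.55) were lower. Fewer genes differed from MHCII+CD11c- cells, where fewer of all genes were called too. For LYVE1+CX3CR1+ cells the share of all genes was 11.4% in controls and 9.77% after IC. For MHCII+CD11c+ cells it was 3.49% and 2.84%. In LYVE1+CX3CR1+ controls *Dld* (0.87) was higher and *Hk3* (-1.02) and *Slc2a1* (-1.35) were lower, and after IC *Fh1* (-1.50) and *Slc2a1* (-1.74) were lower. In MHCII+CD11c+ controls *Pfkp* (1.24) was higher and *Idh2* (-0.70) lower, and after IC *Pfkp* (1.1) was higher. Averaged over subsets, where 6.21% of all genes were called, IC raised *Pkm* (0.56, SE 0.11, edgeR adjusted p = 0.0018) and *Idh3a* (0.72, SE 0.19). It lowered *Pfkp* (-0.53, SE 0.14).

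Ribosomal protein genes were read in the same libraries. Of 78 tested cytosolic ribosomal protein genes 43 were called lower in LYVE1+CX3CR1+ than in MHCII+CD11c- controls and 76 lower than in MHCII+CD11c+ controls. Of all genes 11.4% and 21.8% were called in these comparisons, in either direction. The medians of these ribosomal genes were -0.53 and -0.91, and the members' medians were 0.21 and 0.00. Of 75 mitochondrial ribosomal protein genes edgeR and DESeq2 both called 0 in the first comparison, with 2 at an unadjusted p under 0.05, and in the second *Mrpl54* (-0.95) and *Mrps6* (-1.61) were lower. *Mrps15* (1.40) was higher in MHCII+CD11c+ than in MHCII+CD11c- controls and *Mrpl34* (1.98) higher in LYVE1+CX3CR1+ than in MHCII+CD11c+ cells after IC. Averaged over subsets IC raised *Mrps14* (0.77), *Mrps22* (1.18) and *Mrps25* (0.87), all by edgeR's test. In these last 3 comparisons 3.49%, 19.7% and 6.21% of all genes were called. Whether the chain differed from these lists was not tested.

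Several members have near-identical copies elsewhere in the genome, and the counting rule for reads that match several genes is not given in the sources used here. With 50-base windows of annotated transcripts, 26 of 62 members shared at least 1 window with another locus, from 43.2% of windows in *Uqcrb* and 37.0% in *Ndufb4* to 25.9% in *Cox5b*, 17.7% in *Cox7a2l*, 13.9% in *Cox6c* and 1.41% in *Ndufa13*, and none in *Cox8a* or *Ndufa6*. Exons of 19 members overlapped those of a gene on the opposite strand, *Ndufa13* (*Tssk6*), *Cox6c* (*Vps13b*) and *Ndufa11* (*Vmac*) among them, and the strand setting of the counting is not given either. The counts of these members are to that extent uncertain.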

How the data were processed

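Per the methods of the study, the authors trimmed reads of a stranded low-input total RNA kit with Trim Galore, checked them with FastQC, aligned them to mm10 (GRCm38) with HISAT2 and counted them with featureCounts. They deposited raw counts per gene symbol for each library, without normalization. For their own analysis the methods also name the sva package for the removal of batch effects. The main fit here had no batch term. Versions, annotation, strand setting and the handling of multiply matching reads are not given in the sources used here. All values of the joint table equalled those of the per-library files, and only the latter were read. Genes encoded by mitochondrial DNA were not analysed here, and the values of 1 member are not reported by name.

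The members, the gene lists and the tests were chosen with earlier results of these data known. TMM scaling, CPM and the quasi-likelihood test were run in edgeR 4.0.16 (R 4.3.3) on all 18 libraries in 6 groups. Filtering by filterByExpr, with 10 as the minimum count and 15 as the minimum total, left 10550 genes. P-values were adjusted by Benjamini-Hochberg over these in each of 13 comparisons, with a threshold of 0.05. The SE is the size of the log2 fold change divided by the square root of F, and intervals are at 95%. Replicates are separate pools of 3 mice. Library totals of 245903 to 2172358 counts limit precision, and the limit for a gene at 0 covers counting error alone, since PCR copies cannot be told apart. No libraries were identical (smallest chi-square per gene between replicates, 3.42).

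Genes named are those called, the 2 highest and 2 lowest log2 fold changes of each comparison, high members per length in each complex, complex II, the tissue-restricted forms, *Cox7a2l*, *Ndufa4*, the members at the edge of the count rule and the called genes of the lists. Other members named beside them (such as *Cox6c*, *Cox4i1*, *Cox5b* and *Cox8a* where they fell outside this rule, and the promoter examples) were chosen after their values were seen. Lengths and overlaps came from GENCODE M21 and promoters from RefSeq. Alternatives were DESeq2 1.42.0 (its size factors, and its Wald test), all genes left unfiltered, 10 counts in every library, only the libraries compared, a replicate block, 1 surrogate variable from sva 3.50.0, leaving out the 2 shallowest libraries and leaving out each library.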

Additional observations from a re-analysis of the deposited data

How the results depend on the processing

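The number of members called between LYVE1+CX3CR1+ and MHCII+CD11c- controls, 1 as reported, was 3 with the DESeq2 Wald test, with no filter and with only the libraries compared, 4 with 10 counts in every library or 1 surrogate variable, and 5 without the 2 shallowest libraries. Between LYVE1+CX3CR1+ and MHCII+CD11c+ controls it was 0 with 10 counts in every library, a filter that left 33 members and removed *Ndufa6*, and 2 with only the libraries compared. Between MHCII+CD11c+ and MHCII+CD11c- controls it was 2 with the surrogate variable and without the 2 shallowest libraries. After IC, LYVE1+CX3CR1+ against MHCII+CD11c- gave 2 with 10 counts in every library or the surrogate variable and 0 with only the libraries compared. LYVE1+CX3CR1+ against MHCII+CD11c+ gave 2 with the surrogate variable and with only the libraries compared. The averaged IC effect gave 2 with DESeq2 size factors, 10 counts in every library or the surrogate variable, and 3 with the Wald test. Leaving out the 2 shallowest libraries left 1 library in the MHCII+CD11c- IC group. For that fit, calls in tests with IC libraries are therefore not counted here. IC in LYVE1+CX3CR1+ gave 1 with the Wald test and with only the libraries compared, and IC in MHCII+CD11c+ 1 with the Wald test. Leaving out each library gave 0 to 4, 1 to 1 and 0 to 2 members in the 3 control comparisons, in the order above, 0 to 2, 0 to 2 and 0 to 0 after IC, 1 to 3 for the averaged effect and 0 for IC in each subset and for the 3 differences in response. Calls among all genes moved as well. Over the 13 comparisons the main fit called 8179 pairs of gene and comparison, 6 of them members. The numbers were 9686 and 12 with the DESeq2 Wald test, and 10017 and 13 with the surrogate variable. They were 9666 and 8 with no filter, and 5249 and 10 with 10 counts in every library. Apart from the filter, which shows its own cause, the cause was not tested.

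Deviations of libraries with the same replicate number were weakly correlated at most. Correlations were -0.05 to 0.13 within a treatment, most of them above 0, and -0.03 to 0.04 between control and IC. They do not settle whether subsets of the same number share a pool of mice, and the main fit did not pair libraries. The fit with the replicate block called 6 pairs of member and comparison, as did the fit without it. Among the log2 fold changes recomputed, 9 changed sign. Without the 2 shallowest libraries the MHCII+CD11c- IC group held 1 library. In that fit *Ndufaf4* was at 0.62 and *Ndufa3* at 0.20 for LYVE1+CX3CR1+ over MHCII+CD11c- after IC. *Ndufb2* was at 0.68 for MHCII+CD11c+ over MHCII+CD11c- after IC. The difference in response of *Ndufaf4* between LYVE1+CX3CR1+ and MHCII+CD11c- cells was 0.23. With the surrogate variable *Ndufaf4* was at 0.076 for LYVE1+CX3CR1+ over MHCII+CD11c- after IC. Leaving out 1 library gave -0.65 to 0.10 for *Ndufs4* (LYVE1+CX3CR1+ over MHCII+CD11c- controls) and -0.92 to 0.29 for *Ndufb2* (MHCII+CD11c+ over MHCII+CD11c- controls), both turned by MHCII+CD11c- control replicate 1, and after IC -0.75 to 0.29 for *Ndufaf4* (turned by MHCII+CD11c- IC replicate 2) and -1.63 to 0.22 for *Ndufb2* (turned by MHCII+CD11c- IC replicate 1). Members with few counts in the 2 shallowest libraries are the least certain.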
